A study of Mus musculus with 20 samples.

Results

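Transcripts of 10 genes that carry a calcium signal from the endoplasmic reticulum to the nucleus were followed through 20 libraries of mouse CD4 T cells. They were the calcium sensors Stim1 and Stim2, the channel subunits Orai1 and Orai2, the inositol trisphosphate kinase Itpkb, the phosphatase subunit Ppp3ca, its regulator Rcan1 and the transcription factors Nfatc1, Nfatc2 and Nfatc3. The genes were taken by name from the 22068 gene symbols of the count table, and all 10 were among the 13309 genes tested. The cells were sorted from the spleens and lymph nodes of 8- to 12-week-old C57BL/6 mice, and they formed 5 groups of 4 libraries. Regulatory T cells (Treg) were sorted for a GFP reporter of Foxp3, their defining transcription factor, and lysed at once. Naive cells, negative for that reporter and low in CD44, were sorted into the 15% with the highest (CD5hi) and the 15% with the lowest (CD5lo) surface CD5, a receptor whose amount follows the strength of a cell's contacts with self peptides. These CD5hi and CD5lo cells were lysed either after 22 h of culture with interleukin 7 at 10 ng/mL, which removes them from self peptide and MHC (rested), or at once (fresh). All groups shared the strain and the exclusion of cells that stained for B220, Ly6G, NK1.1, CD11b, CD11c, F4/80 or the activation marker CD69.

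When the T cell receptor is engaged, inositol trisphosphate opens channels of the endoplasmic reticulum and its calcium store drains. Stim proteins in the reticulum membrane sense the loss and open Orai channels in the plasma membrane, which let calcium in. The rise activates calcineurin, a phosphatase made of a catalytic subunit such as the product of Ppp3ca and a regulatory subunit, and calcineurin strips phosphates from NFAT factors, which then enter the nucleus. In T cells this route drives cytokine genes after activation, and in Treg NFAT also acts on DNA together with Foxp3. Each of these steps is set by protein state and location, which transcript counts do not show.

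Total counts ran from 38211406 to 64477566 per library. The sort markers followed the labels: Foxp3 averaged 722 ± 37.97 CPM (read counts scaled to a common library total) in Treg, against 28.6 ± 2.77 CPM in rested CD5hi, 23.3 ± 0.494 in rested CD5lo, 24.1 ± 1.39 in fresh CD5hi and 22.4 ± 1.02 in fresh CD5lo cells (SD, n = 4 each, as for all values below), and Cd5 averaged 982 ± 61.3 CPM in fresh CD5hi against 148 ± 9.83 CPM in fresh CD5lo cells. Of the B cell markers, 6 genes in all, the summed level was 23.7 to 26.0 CPM in Treg, 4.90 to 10.2 CPM in rested and 3.44 to 5.16 CPM in fresh libraries, with the defining marker Pax5 under 1 CPM in every library. The summed level of 7 myeloid markers was 9.65 to 12.6 CPM in Treg, 5.66 to 10.0 CPM in rested and 15.0 to 20.4 CPM in fresh libraries, with Fcer1g and S100a8 under 1 CPM throughout. Both sums lay below the level of every member but Rcan1 in every library, as did that of 4 dendritic markers, at most 1.68 CPM. The sum of 5 CD8 and NK markers was 22.3 to 25.4 CPM in Treg libraries. In rested libraries it was 14.1 to 16.7 CPM for CD5hi and 33.2 to 40.5 CPM for CD5lo cells. In fresh libraries it was 27.6 to 29.8 CPM for CD5hi and 65.9 to 77.8 CPM for CD5lo cells. Most of it came from Cd8b1 and Prf1, and Ncr1 was under 1 CPM throughout. Cd8a and Klrb1c, unlike the sum, were highest in Treg, at 1.46 and 2.36 CPM. In fresh CD5lo cells the CD8 and NK sum exceeded Orai1, Stim2 and Ppp3ca. CPM depends on gene length, so such rankings of sums against members do not show how much other cells add to a member. The sum of 4 erythroid and platelet markers, with Pf4 and Ppbp under 1 CPM, was 0.749 to 15.7 CPM in Treg, 0 to 8.66 CPM in rested CD5hi, 0 to 5.54 CPM in rested CD5lo, 15.8 to 36.9 CPM in fresh CD5hi and 24.9 to 54.2 CPM in fresh CD5lo libraries. These sums move with the comparisons below, and their part in the results was not tested. The labels describe all groups as pooled from males and females, but reads of the Y chromosome and of Xist, the transcript of the inactive X chromosome, did not occur together above 1 CPM. All 8 fresh libraries and replicate 3 of the Treg, rested CD5hi and rested CD5lo groups carried Y-linked reads (11 libraries), and the other 9 carried Xist. Comparisons with fresh cells are therefore given below also with the 11 Y-linked libraries alone, or with a term for Y-linked against Xist libraries (the sex term). This is done where that alters a call, and for some changes of size. With 1 library left in the Treg and rested groups, the first of these fits assumes that it varies as the fresh libraries do.

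Across the 5 groups the members differed most in Orai2 and least in Itpkb, as the plot of levels by group shows. Scaled to the longest coding transcript of each gene in GENCODE M21, an annotation of a later build than the authors' mm9, Orai2 was the most abundant member in all 4 naive groups, at 102 CPM per kilobase in rested CD5hi, 115 in rested CD5lo, 74.9 in fresh CD5hi and 86.3 in fresh CD5lo cells. In Treg the first place fell to Itpkb at 65.7 CPM per kilobase, followed by Nfatc1 at 51.6 and Nfatc3 at 48.6, while Orai2 had 37.8 CPM per kilobase; scaled to all exons of a gene, Itpkb and Nfatc1 still led, with Orai2 and Nfatc3 at 24.8 each. Rcan1 was the lowest member per kilobase in every group, at 3.16 to 4.33. All other levels are CPM, which compare a gene between groups but not with other genes.

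**Figure D1:**
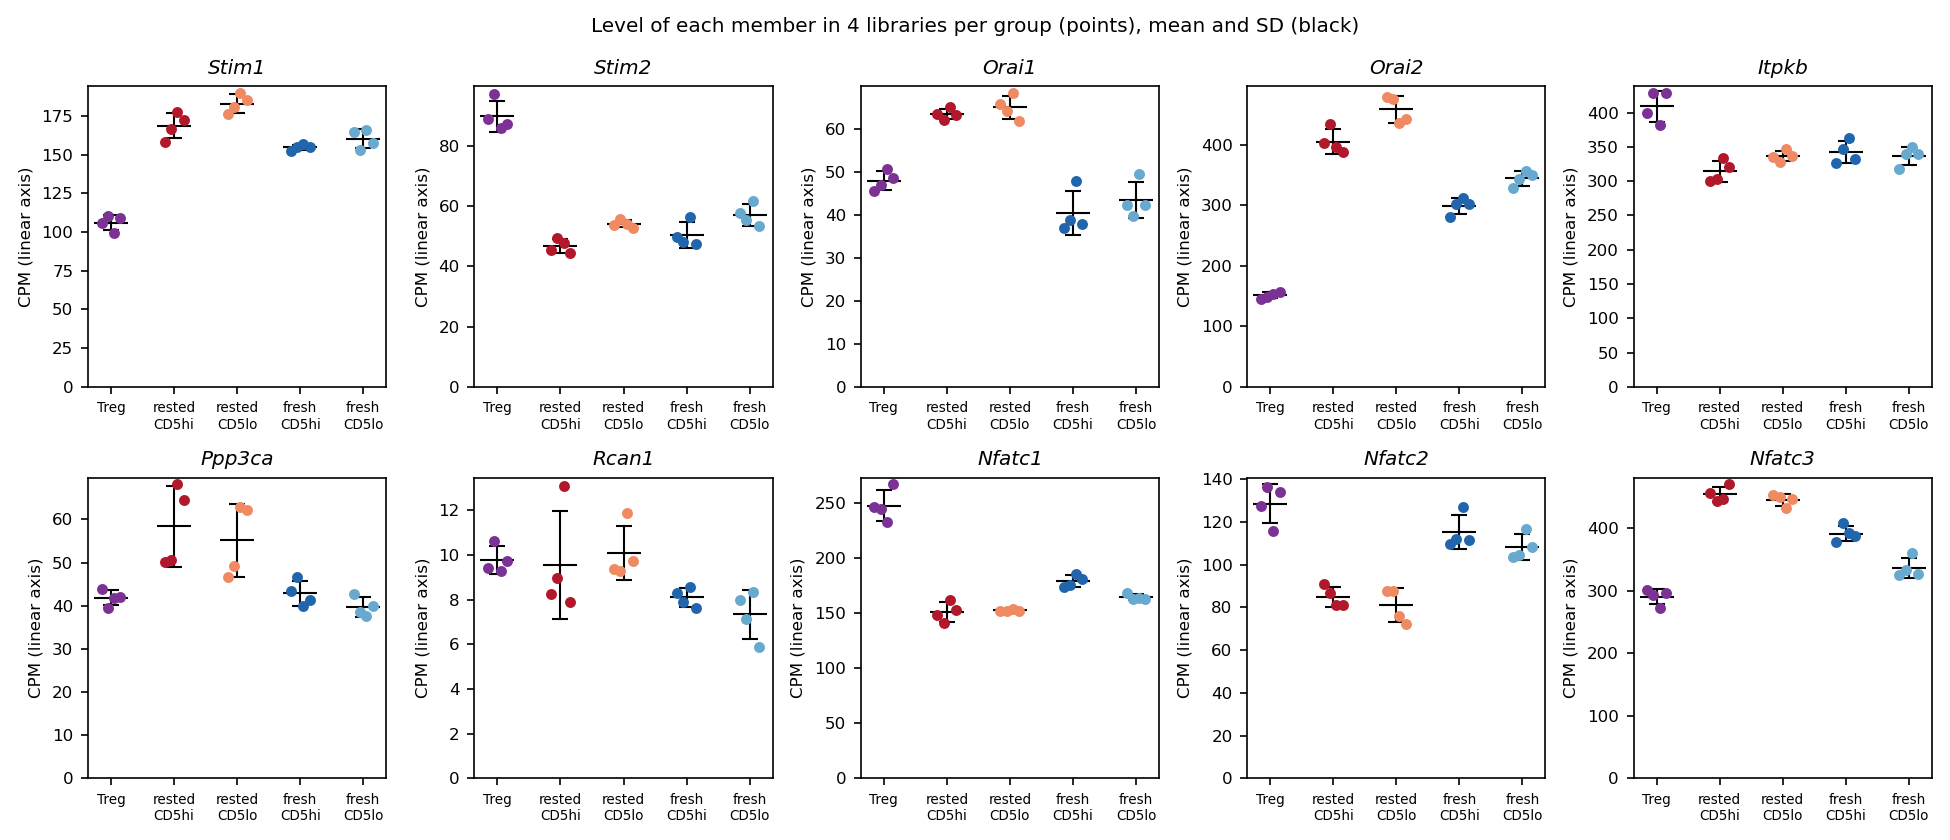
CPM (vertical linear axis from 0) of each of the 10 genes in Treg, rested CD5hi, rested CD5lo, fresh CD5hi and fresh CD5lo cells; points are the 4 libraries of a group, black marks the mean and SD. Orai2 in Treg lies between 146 and 156 CPM, below every naive library, and Stim2 in Treg lies between 86.0 and 97.2 CPM, above every naive library.

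In Treg Stim2, Itpkb and Nfatc1 were higher and Stim1, Orai2 and Nfatc3 lower than in both fresh naive groups. Against fresh CD5lo cells 8 of the 10 genes passed the test (edgeR's quasi-likelihood test, Benjamini-Hochberg adjusted p under 0.05), 5 higher and 3 lower in Treg, and 58.5% of all genes tested passed (29.2% higher and 29.4% lower). Against fresh CD5hi cells 7 passed, 4 higher and 3 lower, beside 54.2% of all genes (27.5% higher and 26.6% lower). The median log2 change of the 10 was 0.19 against CD5lo and 0.20 against CD5hi cells, with -0.03 and -0.02 over all genes. Libraries of Treg and of each fresh group did not overlap for 7 members, while 56.5% of all genes did not overlap against CD5lo and 54.0% against CD5hi cells. The shares of members thus stood close to a background in which most genes differed, and the members are described one by one. In bulk samples, fewer cells with a transcript and less of it per cell cannot be told apart.

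The sensors moved in opposite directions. Stim1, the main sensor of store emptying in T cells, had 106, 110, 99.3 and 109 CPM in the 4 Treg libraries, against 153, 155, 157 and 155 CPM in fresh CD5hi and 164, 153, 166 and 158 CPM in fresh CD5lo libraries. Every Treg library lay below every fresh one, and the log2 change was -0.60 ± 0.04 (SE, adjusted p = 9.4e-11) against CD5lo and -0.55 ± 0.04 (adjusted p = 5.1e-10) against CD5hi cells. Stim2, which responds to smaller losses of store calcium and is known for keeping resting calcium levels, had 88.9, 97.2, 86.0 and 87.2 CPM in Treg, against 49.6, 48.0, 56.5 and 47.5 CPM in fresh CD5hi and 57.6, 55.5, 61.7 and 53.4 CPM in fresh CD5lo libraries. Here every Treg library lay above every fresh one. Stim2 rose 1.57-fold against CD5lo (log2 change 0.65 ± 0.06, adjusted p = 6.1e-09) and 1.78-fold against CD5hi cells (0.83 ± 0.06, adjusted p = 1.5e-10).

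Orai2 showed the largest difference of the 10 genes in both Treg comparisons. It encodes a pore subunit that, in mouse T cells, has been found to join Orai1 in one channel and to lower its current. Treg had 146, 148, 154 and 156 CPM, against 281, 302, 311 and 301 CPM in fresh CD5hi and 328, 343, 356 and 350 CPM in fresh CD5lo libraries. The groups did not overlap, and Orai2 was 2.28-fold lower in Treg than in CD5lo (log2 change -1.19 ± 0.05, adjusted p = 4.1e-15) and 1.98-fold lower than in CD5hi cells (-0.99 ± 0.05, adjusted p = 1.2e-13). Orai1, the pore subunit on which store-operated entry in T cells chiefly rests, had 45.5, 47.0, 50.7 and 48.6 CPM in Treg, against 36.9, 38.8, 47.8 and 37.8 CPM in fresh CD5hi and 42.2, 39.7, 49.5 and 42.2 CPM in fresh CD5lo libraries. Replicate 3 was the highest Orai1 library in all 3 groups, and the groups overlapped. Orai1 was 1.19-fold higher in Treg than in CD5hi cells (log2 change 0.25 ± 0.07, adjusted p = 0.0075), while the difference from CD5lo cells was 0.14 ± 0.07 (adjusted p = 0.10). That difference passed without fresh CD5lo replicate 3 (adjusted p = 0.010), with the sex term (0.046), by DESeq2 (0.047) and with the compared groups alone (0.045).

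The promoter windows of Stim2 and Orai2, the members with the largest rise and the largest fall in Treg, are shown for reference, from RefSeq on the GRCm38.p6 build (250 bases before and 50 after the start of the transcript). Capitals mark the NFAT core GGAAA, read on either strand, so that TTTCC would also be marked. The Orai2 window, chr5:136170607-136170906 on the minus strand, held 1 match and the Stim2 window, chr5:53998273-53998572 on the plus strand, held 0.
Orai2: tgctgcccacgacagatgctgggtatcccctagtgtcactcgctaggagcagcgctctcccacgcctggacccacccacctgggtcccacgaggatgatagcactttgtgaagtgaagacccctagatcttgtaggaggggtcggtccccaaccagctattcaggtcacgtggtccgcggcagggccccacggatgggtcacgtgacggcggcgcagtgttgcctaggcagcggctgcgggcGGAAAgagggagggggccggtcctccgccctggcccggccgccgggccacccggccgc
Stim2: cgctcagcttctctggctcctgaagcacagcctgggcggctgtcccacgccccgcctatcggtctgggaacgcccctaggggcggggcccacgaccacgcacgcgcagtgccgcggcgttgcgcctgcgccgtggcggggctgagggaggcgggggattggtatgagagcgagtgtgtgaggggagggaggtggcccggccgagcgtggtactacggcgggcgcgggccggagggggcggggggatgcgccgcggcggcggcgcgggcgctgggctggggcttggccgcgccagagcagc
A match is a run of letters and not a binding site, and 61.3% of the 32851 windows of all genes held at least 1.

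Apart from the sensors and channel subunits, Itpkb and the NFAT genes differed, and Ppp3ca did not pass the test. Itpkb, a kinase that turns inositol trisphosphate into the tetrakisphosphate and is needed for T cell development in mice, had 400, 428, 382 and 428 CPM in Treg, against 326, 347, 362 and 333 CPM in fresh CD5hi and 318, 340, 350 and 340 CPM in fresh CD5lo libraries. All 4 Treg libraries lay above all 8 fresh ones, and the log2 change was 0.28 ± 0.05 (adjusted p = 3.9e-05) against CD5lo and 0.26 ± 0.05 (adjusted p = 0.00012) against CD5hi cells. Ppp3ca, a catalytic subunit of calcineurin, averaged 41.9 ± 1.80 CPM in Treg, 42.9 ± 2.85 CPM in fresh CD5hi and 39.7 ± 2.25 CPM in fresh CD5lo cells. Its difference from CD5lo cells was 0.08 ± 0.10 on the log2 scale (adjusted p = 0.54), and libraries overlapped.

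Nfatc1, the NFAT gene known for being induced by NFAT itself after activation, had 247, 244, 233 and 267 CPM in Treg, against 174, 176, 185 and 181 CPM in fresh CD5hi and 168, 162, 163 and 163 CPM in fresh CD5lo libraries. The 3 groups were fully separated, with Treg 1.51-fold above CD5lo (log2 change 0.59 ± 0.04, adjusted p = 1.9e-10) and 1.38-fold above CD5hi cells (0.47 ± 0.04, adjusted p = 1.1e-08). Nfatc3, one of the NFAT genes that resting T cells already express, went the other way, at 301, 293, 273 and 297 CPM in Treg, against 379, 408, 393 and 388 CPM in fresh CD5hi and 325, 334, 360 and 326 CPM in fresh CD5lo libraries. The log2 change was -0.21 ± 0.04 (adjusted p = 0.00029) against CD5lo and -0.43 ± 0.04 (adjusted p = 2.8e-08) against CD5hi cells, again without overlap. Nfatc2, also expressed in resting cells and a partner of Foxp3, averaged 128 ± 9.13 CPM in Treg, 115 ± 8.06 CPM in fresh CD5hi and 108 ± 5.98 CPM in fresh CD5lo cells, and Treg overlapped both. It rose against CD5lo (0.25 ± 0.07, adjusted p = 0.0043) but not past the threshold against CD5hi cells (0.16 ± 0.07, adjusted p = 0.061), which it passed without Treg replicate 3 (0.012) or fresh CD5hi replicate 3 (0.011), with RLE size factors (0.028), by DESeq2 (0.024), without the filter on low counts (0.042) and with the compared groups alone (0.024). Among the 11 Y-linked libraries the Nfatc2 change was 0.12 against CD5lo (adjusted p = 0.28) and 0.02 against CD5hi cells (adjusted p = 0.84), and with the sex term it was 0.14 (adjusted p = 0.12) and 0.05 (adjusted p = 0.59). Rcan1, a regulator of calcineurin described further below, averaged 9.77 ± 0.619 CPM in Treg, 8.11 ± 0.417 CPM in fresh CD5hi and 7.34 ± 1.10 CPM in fresh CD5lo cells. It rose against CD5lo (0.41 ± 0.14, adjusted p = 0.013), a call lost among the Y-linked libraries (0.35, adjusted p = 0.088) and without fresh CD5lo replicate 4 (adjusted p = 0.052), and its difference from CD5hi cells was 0.27 ± 0.14 (adjusted p = 0.10). With the sex term the Rcan1 change was 0.65 against CD5lo (adjusted p = 0.00072) and 0.50 against CD5hi cells (adjusted p = 0.0063), and that against CD5hi cells passed also with the compared groups alone (0.28, adjusted p = 0.013).

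**Figure D2:**
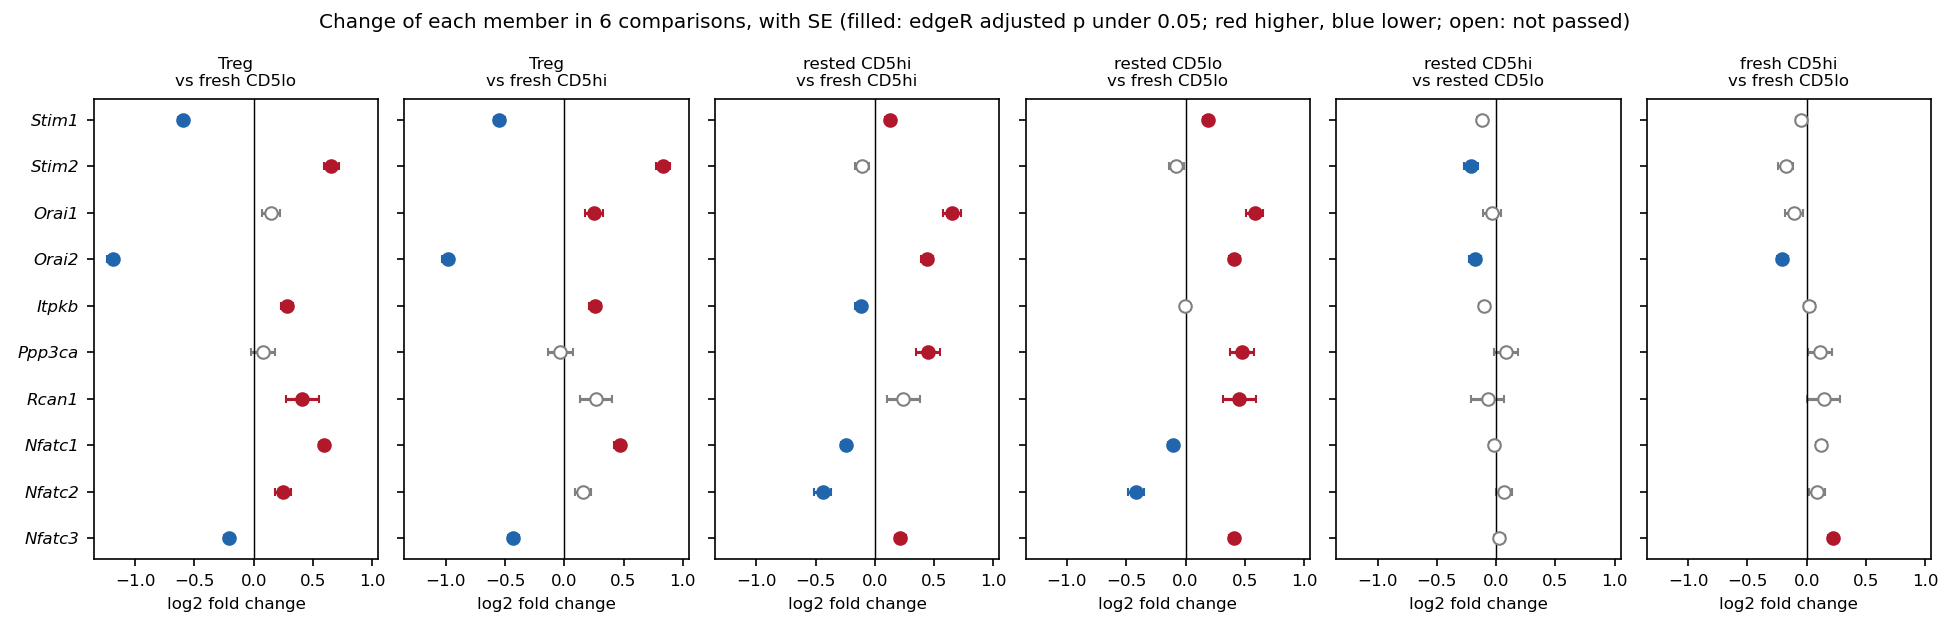
Log2 fold change (horizontal axis) with SE of each of the 10 genes in 6 comparisons: Treg with each fresh group, rested with fresh, and CD5hi with CD5lo; filled points passed an adjusted p under 0.05. Changes reach -1.19 (Orai2) and 0.83 (Stim2) in Treg, 0.65 (Orai1) after resting and 0.22 (Nfatc3) between CD5hi and CD5lo cells.

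Ratios of read counts within a library give the same contrasts free of library scaling; they depend on gene length and so compare groups only. The ratio of Stim2 to Stim1 was 0.848 ± 0.0354 in Treg, 0.277 ± 0.0176 in rested CD5hi, 0.296 ± 0.0124 in rested CD5lo, 0.326 ± 0.0248 in fresh CD5hi and 0.356 ± 0.0142 in fresh CD5lo cells. Orai2 over Orai1 was 3.15 ± 0.0812 in Treg, 6.40 ± 0.404 in rested CD5hi, 7.07 ± 0.463 in rested CD5lo, 7.46 ± 0.653 in fresh CD5hi and 7.98 ± 0.631 in fresh CD5lo cells. On both ratios the 4 Treg libraries stood outside the range of the 16 naive libraries. Nfatc1 over Nfatc3 was 0.851 ± 0.0347 in Treg, 0.332 ± 0.0210 in rested CD5hi, 0.342 ± 0.00895 in rested CD5lo, 0.457 ± 0.0184 in fresh CD5hi and 0.489 ± 0.0268 in fresh CD5lo cells. Nfatc3 over Nfatc2 was 2.27 ± 0.103 in Treg, 5.37 ± 0.359 in rested CD5hi, 5.54 ± 0.488 in rested CD5lo, 3.41 ± 0.231 in fresh CD5hi and 3.11 ± 0.0741 in fresh CD5lo cells. On these NFAT ratios Treg, rested and fresh libraries formed 3 ranges that did not overlap.

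**Figure D3:**
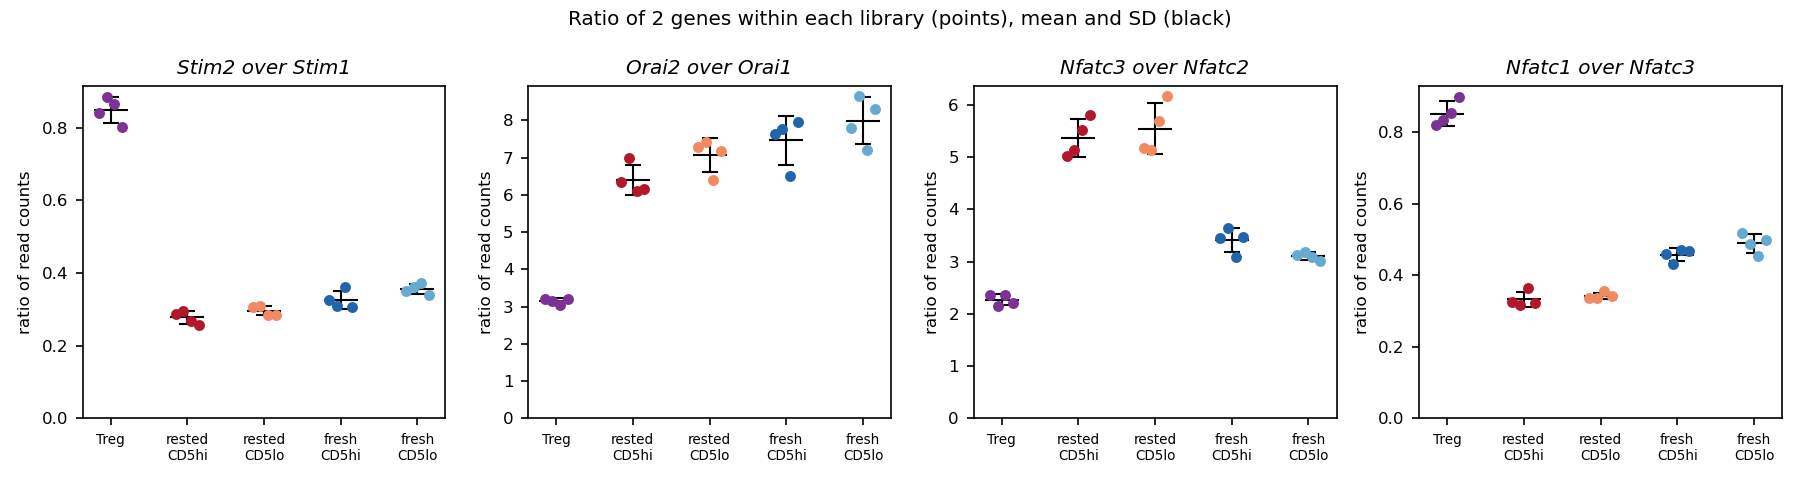
Ratio of read counts of 2 genes within each library (vertical linear axis from 0) in the 5 groups; points are libraries, black marks the mean and SD of 4. Treg stands highest on Stim2 over Stim1 (0.848) and lowest on Orai2 over Orai1 (3.15), and the rested groups stand highest on Nfatc3 over Nfatc2 (5.37 and 5.54).

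The second question was what 22 h away from self peptide did to these genes. Orai1, Orai2, Ppp3ca, Nfatc3 and Stim1 rose and Nfatc2 fell in both CD5hi and CD5lo cells. In CD5lo cells 8 of the 10 genes passed the test, 6 higher and 2 lower after resting, where 54.3% of all genes passed (26.9% higher and 27.3% lower). In CD5hi cells 8 passed, 5 higher and 3 lower, where 52.4% of all genes passed (26.2% in each direction). The median log2 change was 0.17 in CD5hi and 0.30 in CD5lo cells, and over all genes 0.00034 and -0.01. Rested and fresh libraries did not overlap for 7 members in CD5hi and 8 in CD5lo cells, beside 45.8% and 48.1% of all genes. Culture, interleukin 7, time and loss of self peptide came together in the design and cannot be told apart.

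Both channel subunits rose. Orai1 had 63.3, 62.1, 64.9 and 63.1 CPM in rested CD5hi against 36.9, 38.8, 47.8 and 37.8 CPM in fresh CD5hi libraries, a 1.57-fold rise (log2 change 0.65 ± 0.07, adjusted p = 2.9e-07). In rested CD5lo cells it had 65.6, 64.1, 68.3 and 61.8 CPM against 42.2, 39.7, 49.5 and 42.2 CPM in fresh CD5lo libraries, a 1.497-fold rise (0.58 ± 0.07, adjusted p = 1.3e-06). Rested and fresh libraries were fully apart in each pair, and the rested groups lay above Treg as well. Orai2 had 402, 434, 397 and 388 CPM in rested CD5hi against 281, 302, 311 and 301 CPM in fresh CD5hi libraries (0.44 ± 0.05, adjusted p = 1.2e-07). In CD5lo cells Orai2 had 479, 475, 436 and 443 CPM when rested against 328, 343, 356 and 350 CPM when fresh (0.41 ± 0.05, adjusted p = 2.8e-07). Orai2 was the only member whose 5 groups were fully separated from one neighbour to the next, in the order rested CD5lo, rested CD5hi, fresh CD5lo, fresh CD5hi, Treg.

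The sensors moved little. Stim1 had 158, 167, 178 and 173 CPM in rested CD5hi against 153, 155, 157 and 155 CPM in fresh CD5hi libraries, and 176, 181, 190 and 186 CPM in rested CD5lo against 164, 153, 166 and 158 CPM in fresh CD5lo libraries. Its log2 change was 0.19 ± 0.04 in CD5lo (adjusted p = 0.00078) and 0.13 ± 0.04 in CD5hi cells (adjusted p = 0.019), and rested libraries lay above fresh ones in both. The CD5hi call was lost on rested replicates 1 and 2 alone (0.06, adjusted p = 0.33), with the compared groups alone (0.11, adjusted p = 0.067), and without rested CD5hi replicate 3 (adjusted p = 0.11), rested CD5hi replicate 4 (adjusted p = 0.070) or fresh CD5hi replicate 2 (adjusted p = 0.052), and among the Y-linked libraries the change was 0.21 (adjusted p = 0.0079). Stim2 averaged 46.8 ± 2.20 CPM in rested CD5hi against 50.4 ± 4.19 CPM in fresh CD5hi cells, and 54.1 ± 1.17 CPM in rested CD5lo against 57.0 ± 3.53 CPM in fresh CD5lo cells. Neither Stim2 difference passed the test (-0.11 ± 0.06 in CD5hi, adjusted p = 0.15, and -0.08 ± 0.06 in CD5lo, adjusted p = 0.30).

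Ppp3ca rose, with a split among the rested libraries. It had 50.1, 50.7, 68.2 and 64.6 CPM in rested CD5hi against 43.5, 46.6, 40.0 and 41.3 CPM in fresh CD5hi libraries, and 46.6, 49.1, 62.8 and 62.1 CPM in rested CD5lo against 42.8, 38.5, 37.7 and 40.0 CPM in fresh CD5lo libraries. In both rested groups replicates 3 and 4 lay above replicates 1 and 2. The log2 change was 0.45 ± 0.10 in CD5hi (adjusted p = 0.00093) and 0.47 ± 0.10 in CD5lo cells (adjusted p = 0.00052); with rested replicates 1 and 2 alone it was 0.22 (adjusted p = 0.0082) and 0.26 (adjusted p = 0.0026). The rise thus passed also on the 2 lower libraries of each rested group. Over 17 alternatives it ran from 0.22 to 0.69 in CD5hi and from 0.26 to 0.68 in CD5lo cells. Replicate 3, the sole Y-linked library of each rested group, was among the higher ones. The split was not particular to Ppp3ca. In both rested groups replicates 3 and 4 lay above replicates 1 and 2 also for Stim1 and Itpkb, and below them for Nfatc2 and Orai2. Whether replicate numbers mark separate days is not given, and what sets the pairs apart was not tested.

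Rcan1 binds calcineurin and restrains it, and its inner start is a known target of calcineurin and NFAT in mouse and human cells. The windows at its outer and inner starts are printed for that reason, on the minus strand of chromosome 16, with the NFAT core GGAAA or TTTCC in capitals. The inner window, chr16:92400029-92400328, held 3 matches and 1 match to the AP-1 motif TGANTCA, and the outer window, chr16:92466120-92466419, held 0 of either.
Rcan1, inner start: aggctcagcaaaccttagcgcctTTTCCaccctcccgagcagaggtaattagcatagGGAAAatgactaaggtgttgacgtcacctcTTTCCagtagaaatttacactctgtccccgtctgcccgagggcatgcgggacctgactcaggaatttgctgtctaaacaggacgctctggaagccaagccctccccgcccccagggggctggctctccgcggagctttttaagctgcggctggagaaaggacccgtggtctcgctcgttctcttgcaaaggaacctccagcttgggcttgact
Rcan1, outer start: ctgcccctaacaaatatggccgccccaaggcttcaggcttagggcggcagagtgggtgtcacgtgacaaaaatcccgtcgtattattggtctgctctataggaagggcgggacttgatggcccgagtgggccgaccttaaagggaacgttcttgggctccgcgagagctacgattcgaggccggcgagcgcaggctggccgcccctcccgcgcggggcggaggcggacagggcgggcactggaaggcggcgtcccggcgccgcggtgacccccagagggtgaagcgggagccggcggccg
The counts are per gene and do not part the starts. Rcan1 had 8.25, 8.99, 13.1 and 7.91 CPM in rested CD5hi against 8.31, 7.91, 8.58 and 7.64 CPM in fresh CD5hi libraries, where replicate 3 alone stood out and the log2 difference of 0.24 ± 0.14 did not pass (adjusted p = 0.15). Among the Y-linked libraries, which in the rested CD5hi group leave just that replicate 3, the difference was 0.71 (adjusted p = 0.0020), and with the sex term 0.45 (adjusted p = 0.011). In CD5lo cells Rcan1 had 9.39, 9.28, 11.9 and 9.76 CPM when rested against 8.00, 7.13, 8.36 and 5.89 CPM when fresh, without overlap, and rose 1.37-fold (0.45 ± 0.14, adjusted p = 0.0080, and 0.71 with an adjusted p of 0.0024 among the Y-linked libraries). Rcan1 rested on 303 to 616 counts per library, the fewest of the members.

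The NFAT genes parted after resting. Nfatc2 fell in both groups: it had 90.8, 86.6, 80.9 and 81.3 CPM in rested CD5hi against 110, 112, 127 and 112 CPM in fresh CD5hi libraries (log2 change -0.44 ± 0.07, adjusted p = 1.9e-05), and 87.7, 87.8, 75.9 and 72.5 CPM in rested CD5lo against 104, 105, 117 and 108 CPM in fresh CD5lo libraries (-0.42 ± 0.07, adjusted p = 3.3e-05). Nfatc3 rose: it had 456, 444, 447 and 471 CPM in rested CD5hi against 379, 408, 393 and 388 CPM in fresh CD5hi libraries (0.21 ± 0.04, adjusted p = 0.00032), and 453, 451, 432 and 446 CPM in rested CD5lo against 325, 334, 360 and 326 CPM in fresh CD5lo libraries (0.41 ± 0.04, adjusted p = 1.1e-07). No rested library of either gene overlapped its fresh group. Nfatc1 had 148, 141, 162 and 153 CPM in rested CD5hi against 174, 176, 185 and 181 CPM in fresh CD5hi libraries (-0.25 ± 0.04, adjusted p = 0.00010), a fall that was -0.13 (adjusted p = 0.077) among the Y-linked libraries. In CD5lo cells Nfatc1 had 152 to 154 CPM when rested against 162 to 168 CPM when fresh; the change of -0.11 ± 0.04 passed with an adjusted p of 0.049 and failed in 16 of 17 alternatives (adjusted p 0.026 to 0.27 over them), the removal of any of the 8 libraries included (0.081 to 0.13).

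Itpkb held nearly the same level in rested and fresh CD5lo cells, at 337 ± 7.44 and 337 ± 13.6 CPM. In CD5hi cells it averaged 314 ± 15.4 CPM when rested against 342 ± 16.2 CPM when fresh, and libraries overlapped. The log2 change there was -0.12 ± 0.05 with an adjusted p of 0.043; it failed in 11 of 17 alternatives, among them the Y-linked libraries (-0.02, adjusted p = 0.79) and rested replicates 3 and 4 alone (adjusted p = 0.45), and also without rested CD5hi replicate 1 (0.15), 2 (0.13) or 4 (0.055) or fresh CD5hi replicate 2 (0.10) or 3 (0.16).

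Between CD5hi and CD5lo cells the members differed little, with no log2 change beyond -0.21 or 0.22. In fresh cells 1 gene was higher and 1 lower in CD5hi (11.5% of all genes called, 6.86% higher and 4.59% lower), and the median change was 0.06, with -0.01 over all genes. In rested cells 0 were higher and 2 lower (8.20% of all genes called, 4.74% higher and 3.46% lower), and the median was -0.05, with 0.0011 over all genes. Libraries of CD5hi and CD5lo cells did not overlap for 3 members when fresh (20.4% of all genes) and 2 when rested (10.3%). Same-numbered CD5hi and CD5lo libraries varied together, and with the replicate as a block 4 members passed in each state, beside 21.9% in fresh and 18.5% in rested cells of the 12797 genes tested in that fit of the 16 naive libraries. The members' shares are not read as a result about the list. The CD8 and NK marker sum also differed here: Cd8b1 was lower in CD5hi cells by a log2 change of -2.01 when fresh and -1.60 when rested, and Prf1 by -1.002 and -0.989; their part in the results was not tested.

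Orai2 was lower in CD5hi cells both fresh and rested. Fresh CD5hi libraries had 281 to 311 CPM against 328 to 356 CPM in fresh CD5lo libraries (log2 change -0.21 ± 0.05, adjusted p = 0.0045), and rested CD5hi libraries had 388 to 434 CPM against 436 to 479 CPM in rested CD5lo libraries (-0.18 ± 0.05, adjusted p = 0.020). Neither pair overlapped. The rested call was lost when only the compared groups were fitted (adjusted p = 0.16), with rested replicates 3 and 4 as the sole rested libraries (0.18), and when rested CD5hi replicate 1 (0.051), rested CD5lo replicate 1 (0.054) or rested CD5lo replicate 2 (0.057) was left out. With the replicate as a block its adjusted p was 0.0010.

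Nfatc3 was higher in fresh CD5hi cells, at 379, 408, 393 and 388 CPM against 325, 334, 360 and 326 CPM in fresh CD5lo libraries (0.22 ± 0.04, adjusted p = 0.0012). After resting it averaged 455 ± 12.4 CPM in CD5hi and 446 ± 9.23 CPM in CD5lo cells, and these overlapped. The difference between those differences was -0.19 ± 0.06 with an adjusted p of 0.32, and 0.052 with the replicate block, so a loss of the Nfatc3 gap on resting was not established. For Nfatc1 the same term was -0.14 ± 0.06 (adjusted p = 0.72). None of the 10 genes passed in this term, in either direction, by edgeR or by DESeq2. By edgeR 0.451% of all genes passed at the same adjusted threshold (0.113% higher and 0.338% lower). At an unadjusted p under 0.05 there were 2 members. The share of all genes at that threshold was not counted, so nothing is read from those 2.

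Stim2 was lower in rested CD5hi cells, at 45.5, 49.4, 47.6 and 44.5 CPM against 53.7, 55.7, 54.2 and 52.9 CPM in rested CD5lo libraries (-0.21 ± 0.06, adjusted p = 0.035). This call was lost in 10 of 16 alternatives, including the fit without a filter on low counts (0.053), the compared groups alone (0.071) and the removal of any rested CD5lo library (0.058 to 0.093) or of rested CD5hi replicate 1 (0.11) or 4 (0.10). With the replicate as a block the rested Stim2 difference was -0.21 (adjusted p = 0.00063). In fresh cells the Stim2 difference was -0.18 ± 0.06 (adjusted p = 0.066), and 47.5 to 56.5 CPM in CD5hi overlapped 53.4 to 61.7 CPM in CD5lo libraries; without fresh CD5hi replicate 3 its adjusted p was 0.013. Of the 4 members that passed with the replicate block in each state, 2 were not called without it: Stim2 (adjusted p = 0.0016) and Nfatc1 (0.020, and 0.017 in the unblocked fit of the compared groups alone) joined in fresh, and Stim1 (0.016, and 0.047 in the unblocked fit without rested CD5hi replicate 3) and Itpkb (0.040) in rested cells. In that fit Nfatc1 was higher in CD5hi cells (log2 change 0.13), and Stim2 (-0.18), Stim1 (-0.12) and Itpkb (-0.10) were lower.

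The other genes of the pathway were read from 5 lists that hold 59 entries, 52 of them tested. In Treg against fresh CD5lo cells 16 rose and 21 fell, and against fresh CD5hi cells 14 rose and 21 fell, with medians of -0.05 and -0.06 beside -0.03 and -0.02 over all genes. These counts, and those of each list, stand beside the 58.5% and 54.2% of all genes called in the same comparisons, and no list was tested as a list. The largest rises were at the plasma membrane. Atp2b4, a pump that exports calcium, averaged 68.0 ± 7.22 CPM in Treg, against 1.30 ± 0.313 CPM in fresh CD5hi and 1.30 ± 0.269 CPM in fresh CD5lo cells (log2 change 5.73 ± 0.27 and 5.70 ± 0.27). P2rx7, a cation channel opened by extracellular ATP, had 225 to 259 CPM in Treg, against 44.2 to 62.0 CPM in fresh CD5hi and 10.7 to 15.5 CPM in fresh CD5lo libraries. Kcna3, a potassium channel that maintains the driving force for calcium entry, averaged 123 ± 8.53 CPM in Treg, against 42.1 ± 0.981 and 49.2 ± 1.60 CPM in fresh CD5hi and CD5lo cells. No Treg library overlapped a fresh one on these 3 genes. Of the 14 tested genes at the membrane 7 rose and 3 fell in Treg against CD5hi, and 8 rose and 4 fell against CD5lo cells.

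Of 10 tested calcineurin and calmodulin genes 1 rose and 6 fell in Treg against CD5hi (27.5% of all genes were higher and 26.6% lower), and 2 rose and 5 fell against CD5lo cells (29.2% and 29.4%). Ppp3r1, the regulatory subunit, averaged 103 ± 2.75 CPM in Treg, 131 ± 7.59 CPM in fresh CD5hi and 131 ± 3.46 CPM in fresh CD5lo cells (-0.34 ± 0.05 against each). Camkk2, a kinase that activates calmodulin-dependent kinases, averaged 24.5 ± 1.02 CPM in Treg, 45.5 ± 1.99 CPM in fresh CD5hi and 37.4 ± 0.193 CPM in fresh CD5lo cells. Camk2d, a calmodulin-dependent kinase, was higher, with a change of 0.99 ± 0.11 against CD5hi and 0.66 ± 0.11 against CD5lo cells. Cabin1, an inhibitor of calcineurin, fell by 0.35 and 0.40 on the log2 scale, and Dyrk2, a kinase that phosphorylates NFAT, fell by 0.88 and 1.04 in the same comparisons. In the store list, 4 of 11 genes rose and 5 fell in each comparison: Inpp5d, a lipid phosphatase, rose by 0.40 ± 0.04 against CD5hi and 0.59 ± 0.04 against CD5lo cells, and Itpr1, a receptor of inositol trisphosphate, fell by 0.78 and 0.52.

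After resting 20 of the 52 genes rose and 17 fell in CD5hi cells, and 16 rose and 18 fell in CD5lo cells, with medians of 0.07 and 0.04, beside the 52.4% and 54.3% of all genes called. P2rx7 fell to 4.65 ± 1.30 CPM in rested CD5hi cells, against 53.8 ± 7.63 CPM in fresh CD5hi cells, and to 1.08 ± 0.241 CPM in rested CD5lo cells, against 12.96 ± 2.48 CPM in fresh CD5lo cells. Kcna3 rose to 88.7 ± 2.58 CPM in rested CD5hi cells, against 42.1 ± 0.981 CPM in fresh CD5hi cells, and Atp2b1, a calcium-exporting pump, rose by 1.12 ± 0.08 in CD5hi and 1.04 ± 0.08 in CD5lo cells. Atp2a3, which pumps calcium into the store, fell by 0.946 in CD5hi and 0.996 in CD5lo cells, and the store channel Itpr2 fell by 0.53 and 0.54. Of 6 tested inhibitors and binders of calcineurin 4 rose and 1 fell in each CD5 group (26.2% of all genes were higher in CD5hi and 26.9% in CD5lo cells); those that rose included Fkbp1a, which binds tacrolimus (0.83 ± 0.05 and 0.76 ± 0.05), and Rcan3, a relative of Rcan1 (0.40 ± 0.04 and 0.45 ± 0.04). Camk4 (0.57 ± 0.07 and 0.44 ± 0.07) and Homer3, known to compete with calcineurin for NFAT (0.62 ± 0.06 and 0.68 ± 0.06), rose as well. Camk2d fell, with changes of -0.64 in CD5hi and -0.80 in CD5lo cells. Of the 10 tested calcineurin and calmodulin genes 3 rose and 5 fell in CD5hi, and 2 rose and 5 fell in CD5lo cells.

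**Figure D4:**
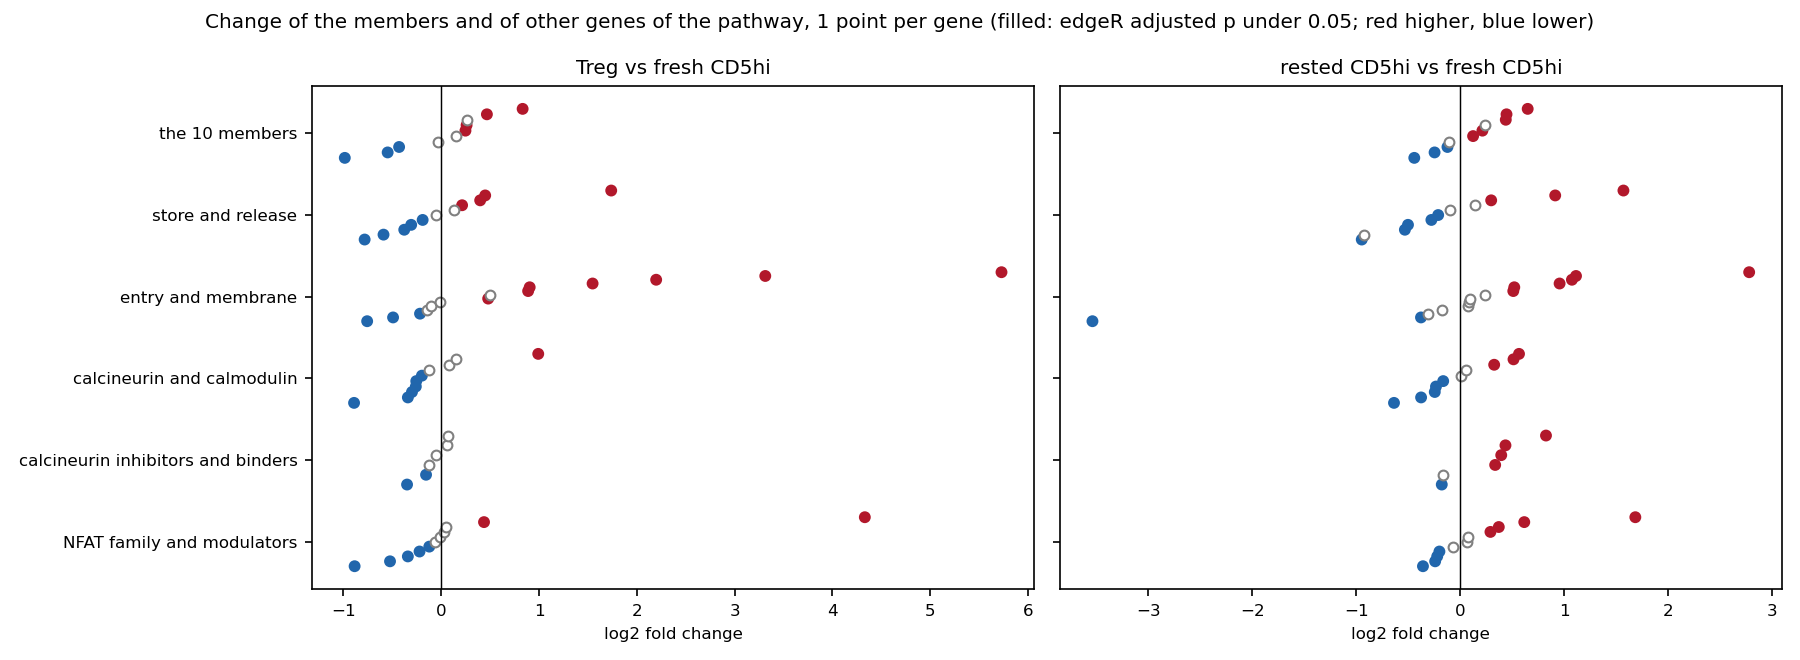
Log2 fold change (horizontal axis) of the 10 members and of the 52 other tested pathway genes by list, 1 point per gene, in Treg against fresh CD5hi cells and in rested against fresh CD5hi cells; filled points passed an adjusted p under 0.05. In Treg 14 of the 52 rose and 21 fell, and after resting 20 rose and 17 fell, beside 54.2% and 52.4% of all genes called.

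Between CD5hi and CD5lo cells 5 of the 52 rose and 6 fell when fresh, and 3 rose and 2 fell when rested, with medians of -0.0049 and 0.03. Of all genes 11.5% were called when fresh and 8.20% when rested, with medians of -0.01 and 0.0011. P2rx7 was higher in CD5hi cells in both states, by 2.05 ± 0.15 when fresh and 2.12 ± 0.21 when rested. Tmem66, now named Saraf, whose product slows store-operated entry, was lower, at 404 ± 18.3 CPM in fresh CD5hi against 536 ± 20.8 CPM in fresh CD5lo cells (-0.41 ± 0.08, adjusted p = 0.00092) and at 576 ± 74.7 CPM in rested CD5hi against 816 ± 86.0 CPM in rested CD5lo cells (-0.50 ± 0.08, adjusted p = 0.00015). Of the store channels, Itpr1 was higher in fresh CD5hi cells (0.26 ± 0.06) and Itpr2 lower (-0.23 ± 0.05). Kcna3 was lower (-0.23 ± 0.05), as was Akap13, an anchoring protein (-0.26 ± 0.06).

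Genes that NFAT is known to drive in activated T cells were listed apart from the route itself; 15 of 19 were tested, and Il2, Il3, Il4 and Csf2 were too low. In Treg 10 rose and 4 fell against CD5hi (median log2 change 1.26), and 12 rose and 3 fell against CD5lo cells (1.93). Of all genes 54.2% and 58.5% were called in these comparisons, with medians of -0.02 and -0.03. Il2ra and Ctla4, which also mark Treg, led the comparison with CD5lo cells with log2 changes of 8.13 ± 0.12 and 7.81 ± 0.13. After resting 4 rose and 8 fell in CD5hi (median -0.45), and 6 rose and 7 fell in CD5lo cells (-0.10). Resting called 52.4% and 54.3% of all genes, with medians of 0.00034 and -0.01. The list split by gene: Egr2 and Egr3, induced early by calcium signals, fell to 1.23 ± 0.656 and 0.301 ± 0.192 CPM in rested CD5hi cells, against 19.95 ± 1.91 and 21.1 ± 1.23 CPM in fresh CD5hi cells. Il2ra, the high-affinity interleukin 2 receptor chain, rose to 88.6 ± 8.89 CPM in rested CD5hi cells, against 1.64 ± 0.308 CPM in fresh CD5hi cells. Between CD5hi and CD5lo cells 7 rose and 2 fell when fresh (median 0.49), and 2 rose and 1 fell when rested (0.06). The shares of all genes called there were 11.5% and 8.20%, with medians of -0.01 and 0.0011. Pdcd1, an inhibitory receptor, and Nr4a1, an early response gene, were higher in CD5hi cells in both states (log2 change 2.32 ± 0.20 and 1.13 ± 0.11 when fresh, 2.65 ± 0.26 and 1.56 ± 0.13 when rested). Other factors also drive these genes, and the list was not read as a measure of NFAT activity.

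Over the 20 libraries, the genes whose log2 CPM ran most like that of Orai2 among 9518 compared were Txk (Pearson r = 0.987), Pde3b (0.987) and Prdx6 (0.986). Pde3b averaged 5.09 CPM in Treg, 343 CPM in rested CD5hi, 526 in rested CD5lo, 150 in fresh CD5hi and 251 in fresh CD5lo cells, the same order of groups as Orai2. Close to Stim1 were Epb4.1 (0.991) and Dyrk2 (0.989), and for Stim2 the 3 closest were Rfk (0.968), Gm2a (0.967) and Trp53i11 (0.961). The points are libraries of 5 groups of 4, so each r mostly reflects the group means, and all share their libraries' depth and scaling.

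Of the 10 members 8 had a RefSeq promoter window among those counted, 11 windows in all. Member windows on 1 chromosome were left out of these counts, but not of the shares over all genes. A member without a counted window may thus still have such a window. The NFAT core GGAAA, searched on both strands, occurred in 6 of the 11, against 61.3% of windows of all genes. The early growth response motif GCGGGGGCG occurred in 1, that of Stim1 (2.91% of all windows), the FOXO motif GTAAACA in 2, of Nfatc2 and Nfatc3 (3.65%), the AP-1 motif TGANTCA in 1, that of the inner start of Rcan1 (7.81%), and the ETS motif CCGGAAG in 0 (8.86%). These counts describe the letters of the windows and say nothing of binding in these cells.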

How the data were processed

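The authors deposited read counts per gene symbol for 20 libraries (polyadenylated RNA, paired reads of 50 cycles, per the labels' protocols). The submitters' processing notes name the build mm9 and the tools edgeR, featureCounts 1.4.5 (from Subread) and TopHat2 2.0.11. Which annotation and strandedness applied was not given in the sources used here. Reads of antisense partners therefore cannot be told apart. A deposited normalized table was not used. Of the counts from 1 to 10, 62.3 to 66.2% per library were even, so pairs appear to be counted per mate and depth is overstated.

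Counts were tested with edgeR 4.0.16 (R 4.3.3) by the quasi-likelihood F test, with TMM scaling, its default expression filter and 1 factor of 5 groups, on 15 residual degrees of freedom. P-values were adjusted by Benjamini-Hochberg over all 13309 genes and called under 0.05. The SE is the size of the log2 change over the square root of F. CPM is relative to the TMM-scaled total. Scripts were tested on simulated data. Alternatives were RLE size factors, DESeq2 1.42.0, no filter, the compared groups alone, a replicate block, a term for Y-linked against Xist libraries, Y-linked libraries alone, rested replicates 1 and 2 or 3 and 4 alone, and leaving out each library.

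Replicate numbers are shared across groups in the titles. Deviations of same-numbered CD5hi and CD5lo libraries correlated at r = 0.412 to 0.682 when fresh and 0.327 to 0.816 when rested. The main test did not use this pairing, and the replicate block, an alternative, did. Correlations of -0.19 to 0.15 for rested with fresh and -0.25 to 0.11 for Treg with fresh showed no pairing. The series text calls the libraries biological replicates without naming animals, so p-values measure the spread between these libraries. The members and gene lists were chosen with earlier results of these data known. Named are the 10 members, per list and comparison up to 4 called genes of at least 1 CPM, ranked by change, of which some are left out for length, and the 3 genes most like each of the 3 members of widest range by r of log2(CPM + 0.5) at a mean of at least 5 CPM. One of these is not reported here. Promoter windows come from RefSeq on GRCm38.p6, matched by symbol.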

Additional observations from a re-analysis of the deposited data

Results flagged for a closer look

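In 50 combinations of member and group, a library far from the other 3 was looked for by Dixon's test, which flags about 1 group in 20 by chance, and 2 were found. Nfatc1 in fresh CD5lo replicate 1 stood at 168 CPM, with the other 3 libraries between 162 and 163 CPM. Nfatc2 in fresh CD5hi replicate 3 stood at 127 CPM, with the others between 110 and 112 CPM. Fresh CD5hi replicate 3 was also the highest library of its group for Nfatc1, Rcan1, Stim1, Stim2 (56.5 CPM), Orai1 (47.8 CPM), Orai2 and Itpkb. For Ppp3ca it was the lowest. In fresh CD5lo cells replicate 3 was the highest library for Nfatc2, Nfatc3, Rcan1, Stim1, Stim2, Orai1, Orai2 and Itpkb, and the lowest for Ppp3ca. What sets replicate 3 apart in the fresh groups was not tested.

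Ctla4, from the list of NFAT target genes, differed between rested and fresh cells in its CD5hi-to-CD5lo change by -0.80 ± 0.16 on the log2 scale (adjusted p = 0.023, edgeR). It averaged 35.7 ± 1.43 CPM in rested CD5hi and 34.1 ± 4.65 CPM in rested CD5lo cells, against 3.45 ± 0.527 CPM in fresh CD5hi and 1.87 ± 0.175 CPM in fresh CD5lo cells (SD, n = 4). The call was lost on rested replicates 3 and 4 alone (-0.69, adjusted p = 0.13) and without fresh CD5hi replicate 2 (0.056), fresh CD5lo replicate 1 (0.051) or fresh CD5lo replicate 4 (0.064).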

How the results depend on the processing

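Of 35 calls of members over 7 comparisons, 27 held under every alternative run, and 8 were lost under 1 or more: Nfatc1, Itpkb and Stim1 after resting, Stim2 and Orai2 between rested CD5hi and CD5lo cells, and Nfatc2 and Rcan1 in Treg against CD5lo cells, with Nfatc1 lost in both CD5 groups. No called member changed sign; 34 of 1180 values did, none of them beyond 0.11. With the replicate block, calls between fresh CD5hi and CD5lo cells numbered 2806 genes and 4 members (1524 and 2 without it), between rested ones 2372 and 4 (1092 and 2), and for the difference of differences 354 genes (60); no other count moved by over 1.5 times. DESeq2 called 130 genes for that difference. Rested or Treg libraries showed no pairing with fresh ones; there the block took Orai1 in Treg against CD5lo cells past the threshold (adjusted p = 0.028) and Nfatc1 in rested against fresh CD5lo cells off it (0.053). Between rested CD5hi and CD5lo cells, 1 member passed without the filter, 0 members and 495 genes with the compared groups alone, 1 member on replicates 1 and 2, and 0 members and 639 genes on replicates 3 and 4. Leaving out 1 library gave 1218 to 1332 genes and 2 to 3 members between fresh CD5hi and CD5lo cells, 834 to 1468 and 0 to 3 between rested ones, 36 to 90 genes and 0 members for the difference, 6305 to 6850 and 6 to 8 for rested against fresh CD5hi, 6330 to 7318 and 7 for CD5lo, 6579 to 6801 and 7 to 8 for Treg against CD5hi, and 7207 to 7414 and 7 to 9 against CD5lo cells. Fewer samples enter the smaller fits; the cause of the other shifts was not tested. Rcan1, at 303 to 616 counts per library, has the widest SE of the members.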
